A study of Mus musculus with 3 samples.

Results

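The globin, heme synthesis and iron genes described here are the adult beta-globin Hbb-b1, the embryonic beta-like globin Hbb-bh1, the heme enzymes Fech and Urod, the ferritin light chain Ftl1, the iron-regulatory aconitase Aco1 and the transferrin receptor Tfrc. They were found by gene symbol among spots that had a value on all 3 arrays and whose platform annotation names exactly 1 gene. This gave 7 genes with 11 spots, out of 3462 genes and 6039 spots tested, and no spot annotated to one of these genes alone lacked a value. Tfrc had 5 spots, made from 3 source sequences, and each of the other genes had 1 spot.

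In the study, castrated C57BL/6 mice received testosterone pellets and were compared with castrated mice that received placebo pellets. Castration was at 7 weeks of age, the pellets held 12.5 mg for release over 60 days, treatment lasted 4 weeks, and the mice were 17 weeks old. Each of the 3 two-colour arrays, named T1, T2 and T3, held RNA of 1 testosterone mouse against that of its matched placebo mouse, so that both channels came from castrated animals and no intact mouse entered the comparison. Testosterone was in the Cy5 channel on T1 and T3 and in the Cy3 channel on T2. The samples are labelled bone marrow, while the extraction protocol speaks of pulverized bone, so how far the RNA is that of marrow, of bone or of both cannot be told from the labels, which describe no sorting of cells. The values are ratios, which show no level of any marker, so the tissue label could not be checked against its defining genes.

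Each value is read as a log2 ratio, testosterone over placebo. No source used here states the base of the logarithm, which was taken from the spread of the values, or the numerator, which was taken from the design text, where testosterone is the experimental side. The direction is therefore likely and not settled. The sign of T2 was kept as deposited, and the 3 arrays correlated positively over the spots tested (Pearson's r = 0.42 for T1 with T2, 0.49 for T1 with T3 and 0.73 for T2 with T3). Values were present for 6771 to 9007 of 11552 spots per array. Over all genes tested the median ratio was -0.038 in pair T1, -0.12 in pair T2 and -0.055 in pair T3. The number of arrays limits the precision, and spot brightness was not analysed here.

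Hemoglobin is built from globin chains and heme, and its synthesis in the marrow takes most of the iron that the body uses each day. Erythroblasts take up transferrin-bound iron through Tfrc, make the porphyrin ring in a chain of enzymes that includes Urod, and insert the iron with Fech. Iron not in use is stored in ferritin, of which Ftl1 is the light chain. Aco1, also called IRP1, is a cytosolic aconitase that without its iron-sulfur cluster binds iron-responsive elements in messenger RNAs, where it blocks translation of ferritin and stabilises the message of Tfrc. Testosterone is known to raise red cell production.

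The stretches upstream of the transcription start are shown because the genes with an entry include both ends of the order of ratios given below (Urod and Tfrc) and the iron-store pair Ftl1 and Aco1. Of the 7 genes, 4 matched the RefSeq promoter table of build GRCm38.p6. Each line gives, 5′ to 3′ on the gene's own strand, 250 bases, or for Urod 227 bases, all upstream of the annotated gene. Capitals mark matches to CCNCNCCC, the letters bound by factors of the Krüppel-like family such as the erythroid factor Klf1, on either strand.
Urod, chr4:116994437-116994663, minus strand: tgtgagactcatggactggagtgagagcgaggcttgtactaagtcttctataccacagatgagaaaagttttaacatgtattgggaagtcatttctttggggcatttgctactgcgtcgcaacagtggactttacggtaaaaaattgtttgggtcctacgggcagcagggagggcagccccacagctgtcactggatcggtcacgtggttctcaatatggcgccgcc
Ftl1, chr7:45459887-45460136, minus strand: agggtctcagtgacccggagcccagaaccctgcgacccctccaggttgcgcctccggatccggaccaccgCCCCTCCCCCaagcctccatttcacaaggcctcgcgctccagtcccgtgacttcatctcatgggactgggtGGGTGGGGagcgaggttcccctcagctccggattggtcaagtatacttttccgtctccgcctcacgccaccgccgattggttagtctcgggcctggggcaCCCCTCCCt
Aco1, chr4:40143015-40143264, plus strand: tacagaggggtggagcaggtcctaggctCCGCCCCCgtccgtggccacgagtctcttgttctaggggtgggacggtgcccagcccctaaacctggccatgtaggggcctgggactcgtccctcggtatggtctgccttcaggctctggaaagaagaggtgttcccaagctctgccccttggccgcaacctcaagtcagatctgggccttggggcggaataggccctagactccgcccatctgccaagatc
Tfrc, chr16:32608646-32608895, plus strand: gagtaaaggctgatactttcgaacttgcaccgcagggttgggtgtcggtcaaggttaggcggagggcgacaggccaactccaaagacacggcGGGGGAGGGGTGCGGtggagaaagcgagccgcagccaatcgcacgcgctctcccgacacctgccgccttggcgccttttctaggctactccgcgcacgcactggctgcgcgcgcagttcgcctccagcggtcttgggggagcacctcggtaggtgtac

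The Ftl1 window held 4 matches to CCNCNCCC, the Tfrc window 3 overlapping matches, the Aco1 window 1 and the Urod window 0. Of 32851 RefSeq windows of 250 bases, 45.9% held at least 1 such match, and 42.1% did at 227 bases. The letters AGATAA or AGATAG, and likewise TGATAA or TGATAG, which GATA factors bind, were searched on both strands and were in none of the 4 windows, against 26.5% of all windows of 250 bases and 25.1% at 227 bases. A match is a description of the letters and not a binding site. From the highest to the lowest mean ratio, the windows of Urod, Ftl1, Aco1 and Tfrc had 0, 4, 1 and 3 matches, which follow no order.

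Of the 7 genes, 6 had a mean ratio above 0 and 5 of these, Hbb-b1, Fech, Urod, Ftl1 and Aco1, were above 0 on all 3 arrays. Among all genes tested, 37.6% had a mean above 0 and 18.1% were above 0 on all 3 arrays. None of the 7 genes passed the threshold of an adjusted p of 0.05 by limma, where 4.91% of all genes tested did, 1.68% as higher and 3.24% as lower. By unadjusted p under 0.05, 4 of the 7 passed (Hbb-b1, Fech, Urod and Ftl1), against 28.1% of all genes tested. At the level of spots 0 of the 11 passed after adjustment, against 2.83% of all spots tested, and 4 had an unadjusted p under 0.05, against 29.9% of all spots tested. The median of the gene means was 0.35 over the 7 genes and -0.071 over all genes tested. The 7 genes were chosen with earlier results of these data known, which may set part of this contrast. In lists of globin, heme, iron and red cell genes, the 30 measured genes outside the 7 had a median of 0.047, with 16 above 0 and 14 below. On single arrays the median over the 7 genes was 0.12 in pair T1, 0.31 in pair T2 and 0.32 in pair T3. In RNA of unsorted tissue, more cells of a type and more RNA per cell cannot be told apart.

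**Figure D1:**
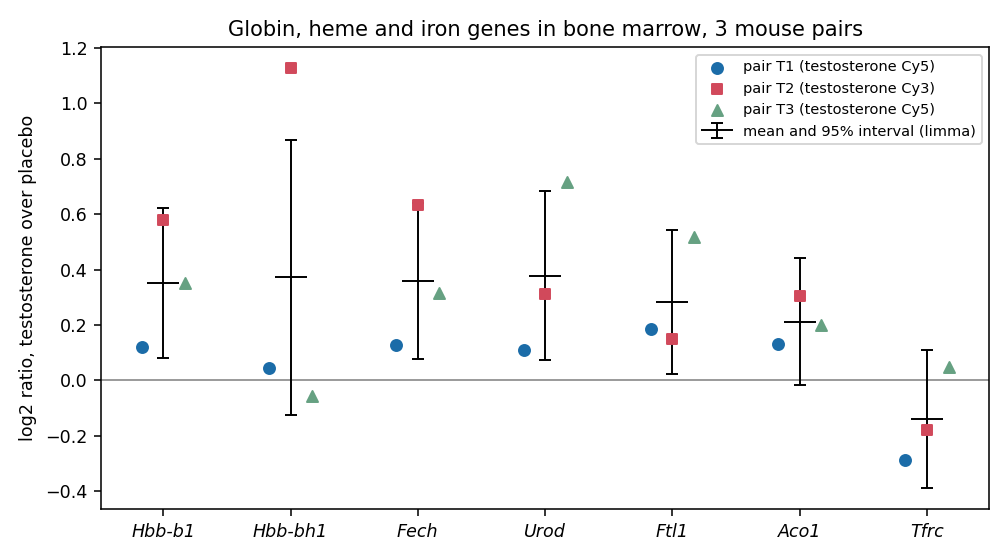
Log2 ratio of testosterone to placebo (y axis) for each of the 7 genes (x axis) in the mouse pairs T1, T2 and T3 (points), with the mean and its 95% interval by limma (black). Hbb-b1, Fech, Urod, Ftl1 and Aco1 lie above 0 in every pair, Hbb-bh1 stands high on T2 alone, and Tfrc has the lowest mean, -0.14.

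Among the globins, the adult beta chain Hbb-b1 had log2 ratios of 0.12 in pair T1, 0.58 in pair T2 and 0.35 in pair T3. All 3 pairs were on the side of testosterone, and T1 was the lowest. The mean was 0.35 ± 0.23 (SD, n = 3), a fold of 1.27 with a 95% interval of 1.06 to 1.54 by limma's moderated error (adjusted p = 0.111). If the deposited values were natural logs, the same mean would be a fold of 1.42. Within each array this spot lay at percentile 72.6 of all genes on T1, 93.4 on T2 and 91.7 on T3. C57BL/6 mice carry a haplotype of the adult beta-globin locus whose genes are named Hbb-bs and Hbb-bt, so the name Hbb-b1 is that of the array's annotation, and a spot cannot separate such near-identical chains.

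Hbb-bh1 encodes a beta-like globin of the primitive red cells of the mouse embryo. Its ratios were 0.046 in pair T1, 1.13 in pair T2 and -0.057 in pair T3. The value on T2 was the highest of any of the 7 genes on any array, and the other pairs were close to 0. The mean of 0.37 ± 0.66 (SD, n = 3; adjusted p = 0.289) had a 95% interval from -0.12 to 0.87, and without T2 it was -0.0055. T2 is the array of opposite dyes. The value on T2 exceeded the mean of T1 and T3 by 1.13, more than for 99.4% of all genes, for which the 5th and 95th percentiles of this difference were -0.51 and 0.49. Hba-x, an embryonic alpha-like globin outside the 7 genes, had -0.26 in pair T1, 0.59 in pair T2 and -0.21 in pair T3, with a mean of 0.040 (adjusted p = 0.900). Both embryonic globin spots were thus highest on T2. Hbb-b1, Fech and Aco1 were highest on T2 as well, but by less. For them T2 exceeded the mean of T1 and T3 by 0.34, 0.41 and 0.14, below the 95th percentile of all genes. For Urod (-0.10), Ftl1 (-0.20) and Tfrc (-0.060) this difference was below 0. A spot that lists the adult beta-globins Hbb-b1 and Hbb-b2 had -0.30 in pair T1, 1.04 in pair T2 and 0.12 in pair T3. T2 is 1 mouse pair, so its dye orientation and its mice cannot be told apart.

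**Figure D2:**
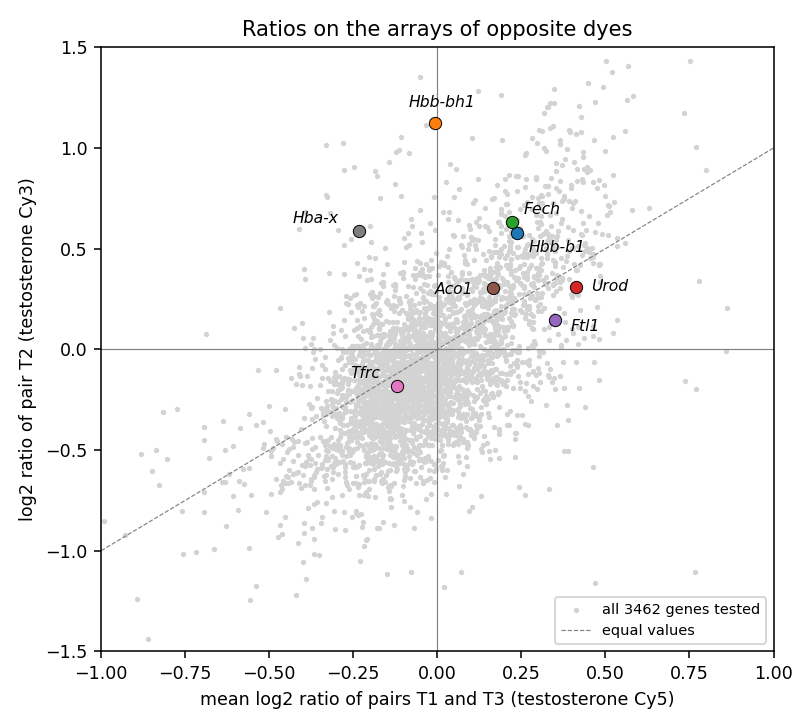
Log2 ratio on T2, where testosterone was Cy3 (y axis), against the mean of T1 and T3, where it was Cy5 (x axis), for all genes tested (grey; 53 lie outside the axes) and for the 7 genes and Hba-x (coloured). Hbb-bh1 and Hba-x are above 0 on T2 with a mean of T1 and T3 at or below 0, while Hbb-b1, Fech, Urod, Ftl1 and Aco1 are above 0 on both axes and Tfrc is below 0 on both.

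Fech, the ferrochelatase that inserts iron into protoporphyrin to make heme, had ratios of 0.13 in pair T1, 0.63 in pair T2 and 0.32 in pair T3. The order of the pairs was that of Hbb-b1, and the mean of 0.36 ± 0.26 (SD, n = 3) was a fold of 1.28 with a 95% interval of 1.06 to 1.56 (adjusted p = 0.114). Urod, the decarboxylase that removes carboxyl groups from uroporphyrinogen earlier in the pathway, had 0.11 in pair T1, 0.31 in pair T2 and 0.72 in pair T3. Here T3 and not T2 was the highest pair, at percentile 98.8 of all genes on that array. The mean of Urod was 0.38 ± 0.31 (SD, n = 3), a fold of 1.30 with a 95% interval of 1.05 to 1.61 (adjusted p = 0.118), and without T3 it was 0.21.

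Ftl1, the light chain of the iron store ferritin, had ratios of 0.19 in pair T1, 0.15 in pair T2 and 0.52 in pair T3. T1 and T2 were close to each other and T3 stood above them. The mean was 0.28 ± 0.20 (SD, n = 3), a fold of 1.22 with a 95% interval of 1.02 to 1.46 (adjusted p = 0.156), and 0.17 without T3. One further spot, whose annotation names Ftl1 beside a ferritin pseudogene and which was therefore not counted as Ftl1, had 0.034 in pair T1, 0.51 in pair T2 and 0.46 in pair T3. Aco1 had 0.13 in pair T1, 0.30 in pair T2 and 0.20 in pair T3. Its pairs lay closest together, with the smallest SD of the 7 genes, around a mean of 0.21 ± 0.087 (SD, n = 3), a fold of 1.16 with a 95% interval of 0.989 to 1.36 (adjusted p = 0.203).

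Tfrc, which brings transferrin-bound iron into the cell, had a gene mean over its 5 spots of -0.29 in pair T1, -0.18 in pair T2 and 0.047 in pair T3. It was the one gene of the 7 with a mean below 0, and T3 was on the other side of 0 from T1 and T2. The mean was -0.14 ± 0.17 (SD, n = 3), a fold of 0.907 with a 95% interval of 0.763 to 1.08 (adjusted p = 0.418). Without T1 the mean was -0.067, and without T3 it was -0.23.

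The 5 spots of Tfrc did not all follow 1 pattern. All 5 were below 0 on T1 (-0.45 to -0.019), 3 were below 0 on T2 (range -0.47 to 0.099) and 1 on T3 (range -0.35 to 0.25). The spots come from 3 source sequences, here called A, B and C, of which B and C were each spotted in duplicate. Sequence A had -0.019 in pair T1, -0.47 in pair T2 and -0.35 in pair T3. Sequence B averaged -0.27 in pair T1, -0.28 in pair T2 and 0.10 in pair T3, and sequence C averaged -0.44 in pair T1, 0.061 in pair T2 and 0.19 in pair T3. Thus A was nearest to 0 on T1, where C was lowest, and A was the single sequence below 0 on T3. Duplicate spots of 1 sequence differed by 0.11 to 0.21 for B and by 0.020 to 0.11 for C on a given array, less than A differed from C on every array (0.42 to 0.54). A differed from B by 0.25 in pair T1, 0.19 in pair T2 and 0.45 in pair T3, and in pair T2 this was less than the 0.21 between the duplicates of B. B differed from C by 0.17 in pair T1, 0.34 in pair T2 and 0.0875 in pair T3. In pair T3 this was less than the difference between the duplicates of either sequence. None of the 5 spots passed (adjusted p from 0.174 for A to 0.895 for a spot of C).

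**Figure D3:**
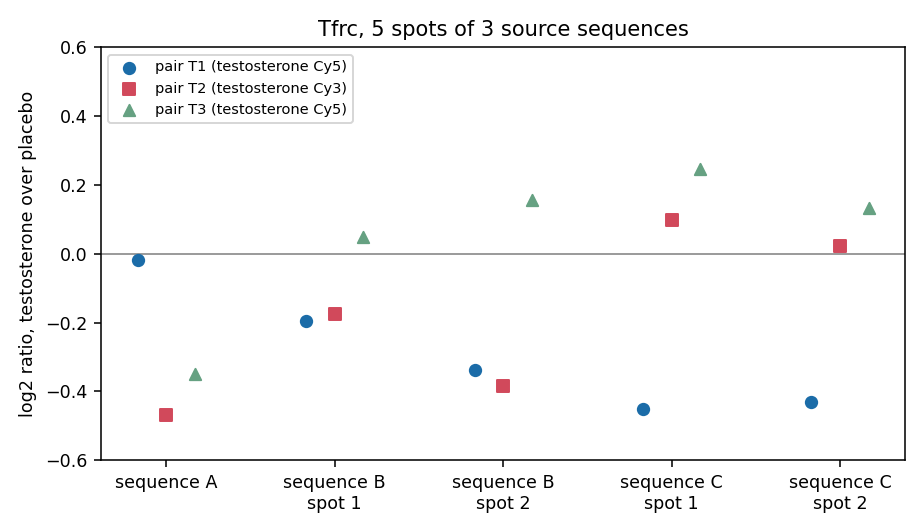
Log2 ratio of testosterone to placebo (y axis) at each of the 5 Tfrc spots, grouped by source sequence (x axis), in the pairs T1, T2 and T3 (points). On a given array duplicate spots differ by at most 0.21 for sequence B and 0.11 for sequence C. Sequence A is near 0 on T1 (-0.019) and below 0 on T2 and T3.

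By mean ratio the genes stood in the order Urod, Hbb-bh1, Fech, Hbb-b1, Ftl1, Aco1 and Tfrc. Neighbours from Urod down to Aco1 differed by less than their SD over the pairs. The step from Aco1 to Tfrc was 0.35 ± 0.18 (SD, n = 3), with Aco1 above Tfrc by 0.42 in pair T1, 0.48 in pair T2 and 0.15 in pair T3. Of the 6 other genes, 5 were above Tfrc on all 3 arrays, and Hbb-bh1 was above it on T1 and T2 only. The difference from Tfrc ran from 0.35 ± 0.18 for Aco1 to 0.52 ± 0.14 for Urod among these 5, and was 0.51 ± 0.72 for Hbb-bh1. No test is given, since 3 pairs allow no two-sided exact sign-flip p below 0.25. This comparison with Tfrc was chosen after the values were seen.

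T1 was the lowest pair for 5 of the 7 genes, Hbb-b1, Fech, Urod, Aco1 and Tfrc. The share of all genes lowest on T1 was not counted. T1 also had the smallest spread over its spots (SD 0.30, against 0.50 on T2 and 0.33 on T3). Without T1, the fit on the other 2 pairs placed 4 of the 7 genes past the threshold as higher, where 8.38% of all genes tested were. These were Urod (0.51, adjusted p = 0.00941), Fech (0.48, adjusted p = 0.0151), Hbb-b1 (0.47, adjusted p = 0.0166) and Hbb-bh1 (0.53, adjusted p = 0.0254). The 2 pairs of Hbb-bh1 lay on opposite sides of 0, at 1.13 in pair T2 and -0.057 in pair T3. Its passing therefore does not show that these pairs were alike, since limma's error also draws on the other genes tested. Without T2, 0 of the 7 passed (adjusted p from 0.283 to 0.985), where 1.01% of all genes tested did. At an unadjusted p under 0.05, 1 of the 7 passed, against 568 of all 3462 genes tested. Without T3, 0 of the 7 passed either (adjusted p from 0.336 to 0.602), where 0.953% did. At an unadjusted p under 0.05, 0 of the 7 passed, against 536 of all 3462 genes tested. With a dye term in the fit over genes Hbb-bh1 passed as higher (0.56, adjusted p = 0.0339), where 5.2% of all genes tested did. The dye term is set by T2 alone, the single array of opposite dyes. T2 then counts as much as T1 and T3 together, and a gene's own spread comes from T1 and T3 only. In the fit over spots with that term 3 of the 11 spots passed as higher, those of Hbb-bh1 (adjusted p = 0.0122), Fech (0.43, adjusted p = 0.0303) and Hbb-b1 (0.41, adjusted p = 0.0374), where 13% of all spots tested did. With the sign of T2 turned, the means were -0.036 for Hbb-b1, -0.38 for Hbb-bh1 and -0.064 for Fech, while Urod (0.17), Ftl1 (0.18), Aco1 (0.0093) and Tfrc (-0.020) kept their side of 0. After either centring alternative all 7 genes kept their direction.

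Marker lists of other cells of marrow and of adjoining muscle differed between the arrays. Of 18 B lineage markers 6 were measured, all with a mean below 0, and 5 passed as lower over all genes tested, with Cd79b, a chain of the B-cell receptor, at -2.11 ± 0.14 (SD, n = 3; adjusted p = 7.73e-05). The median of the 6 was -2.11 in pair T1, -2.16 in pair T2 and -1.60 in pair T3. Neutrophil markers (5 of 16 measured, 0 passed) had medians of 0.60 in pair T1, 0.11 in pair T2 and -0.15 in pair T3, with the integrin Itgam at 0.77, 0.29 and -0.066. Skeletal muscle markers (5 of 14 measured, 0 passed) had medians of -0.032 in pair T1, -0.82 in pair T2 and -0.45 in pair T3, with the myosin light chain Mylpf at -0.69 ± 0.52 (adjusted p = 0.0640). In the fits over genes named above, all 5 muscle markers passed as lower without T1, where 9.62% of all genes tested did, and 4 passed as lower with the dye term, where 5.92% did; without T2 or without T3 0 passed. T1 was the pair with the highest neutrophil and muscle medians. It was also the pair with the lowest values of 5 of the 7 genes, and a link between these was not tested. Monocyte and macrophage markers (8 of 13 measured, 0 passed) had a median of 0.12, with the receptor tyrosine kinase Mertk at 0.33 ± 0.085 (adjusted p = 0.0889). Of the 8, 5 had a mean above 0 and 3 below, namely Adgre1 (-0.041), Lyz2 (-0.025) and Ccr2 (-0.069). The list's median was 0.25 in pair T1, 0.11 in pair T2 and 0.12 in pair T3. Of 11 megakaryocyte and platelet markers 2 were measured and 0 passed, with the integrin Itga2b at -0.44 ± 0.19 (adjusted p = 0.0583). The part of these cell types in the ratios of the globin, heme and iron genes was not tested.

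Outside the 7 genes, 30 of 124 genes in the 8 lists of globin, heme, iron and red cell genes were measured. Of these, 16 had a mean above 0 and 14 below, 7 were above 0 on all arrays (18.1% of all genes tested were) and 7 below 0 on all arrays (33.9% of all genes tested were), and their median was 0.047, against -0.071 over all genes tested. None passed by limma (lowest adjusted p = 0.0965).

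In heme synthesis, Ppox, the oxidase that acts just before Fech, had 0.29 in pair T1, -0.028 in pair T2 and 0.026 in pair T3. Clpx, a mitochondrial unfoldase known to activate the first enzyme of the pathway, had -0.076, -0.28 and 0.017. Neither followed Fech and Urod above 0 on every array, and the median of the 4 measured genes was 0.23. Among genes of heme transport and breakdown (4 measured, median 0.013), Cd163, the macrophage receptor for hemoglobin bound to haptoglobin, had 0.46 in pair T1, 0.40 in pair T2 and 0.13 in pair T3 (mean 0.33 ± 0.18, adjusted p = 0.109). The heme-binding membrane protein Pgrmc1 had a mean of -0.19 ± 0.094 and was below 0 on every array (adjusted p = 0.243).

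Of 5 measured genes of iron uptake, storage and export, 3 were above 0 on all arrays, Ftl1 and the metal importers Slc39a8 and Slc39a14, and the median was 0.28. Slc39a8, which can carry zinc, manganese and iron that is not bound to transferrin, had 0.11 in pair T1, 0.47 in pair T2 and 0.55 in pair T3 (mean 0.38 ± 0.24, adjusted p = 0.0965). Slc39a14, a related importer, had 0.28, 0.58 and 0.16 (mean 0.34 ± 0.22, adjusted p = 0.114). These importers had means above 0 where Tfrc had a mean below 0.

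In the list of iron regulation, Aco1 was the single gene above 0 among 4 measured, and the median was -0.24. Smad4, a shared mediator of bone morphogenetic protein signals to hepcidin in the liver, had a mean of -0.31 ± 0.16 (adjusted p = 0.117), and Pcbp2, an RNA-binding protein that also acts as an iron chaperone, had -0.30 ± 0.20 (adjusted p = 0.134). Both were below 0 on every array. Of 6 genes of iron-sulfur cluster assembly (median 0.017), the cytosolic scaffold Nubp1 had -0.36 ± 0.23 (adjusted p = 0.109) and the cysteine desulfurase Nfs1 -0.13 ± 0.049 (adjusted p = 0.401), and 2 of the 6 were below 0 on all arrays.

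Among 7 measured genes of the red cell membrane and of maturation, 6 had a mean above 0 and the median was 0.12. The antioxidant Prdx2 had -0.027 in pair T1, 0.46 in pair T2 and 0.40 in pair T3, and the mitophagy receptor Bnip3l, which clears mitochondria from maturing red cells, had 0.082, 0.40 and 0.23. Both were lowest on T1, whereas the median of the 7 genes was 0.098 in pair T1, 0.069 in pair T2 and 0.23 in pair T3. Of 4 erythroid regulators (median -0.095), Tal1, a transcription factor of red cell precursors, had 0.23 ± 0.15 (adjusted p = 0.203), and its cofactor Ldb1 had -0.23 ± 0.17 (adjusted p = 0.203).

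**Figure D4:**
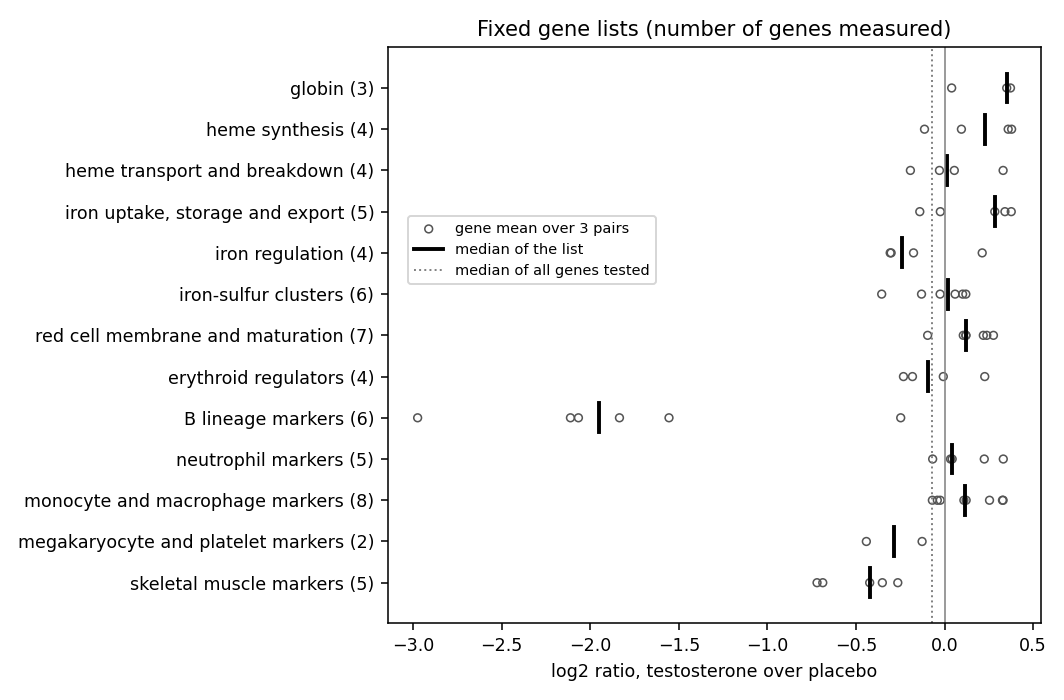
Mean log2 ratio over the 3 pairs (x axis) of every measured gene (open circles) in the 13 gene lists (y axis, with the number of genes measured), with each list's median (black bar) and the median of all genes tested, -0.071 (dotted). The globin, heme synthesis and iron uptake lists hold 6 of the 7 genes described, and their medians, which include these genes, lie above 0. The globin median is the value of Hbb-b1 and the iron uptake median that of Ftl1. The other genes of these lists are Hba-x (0.040), Ppox (0.095), Clpx (-0.11), Slc39a8 (0.38), Slc39a14 (0.34) and Ncoa4 (-0.025). Iron regulation, which holds Aco1, lies at -0.24, and the B lineage markers lie far below the other lists.

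The genes whose ratios over the 3 arrays were nearest to the mean of the 7 genes (0.062 in pair T1, 0.42 in pair T2 and 0.30 in pair T3), by Euclidean distance, were the glycine transporter Slc6a9 (0.047), the autophagy kinase Ulk1 (0.070), the urea transporter Slc14a1 (0.071), the small GTPase Rab31 (0.071) and Bnip3l (0.074). Slc6a9 had ratios of 0.09, 0.43 and 0.26 for the pairs in turn. The distance of the 7 genes themselves from that mean ran from 0.17 for Aco1 to 0.79 for Hbb-bh1, with Tfrc at 0.74. With 3 arrays such a likeness is a description only.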

How the data were processed

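Total RNA from pulverized bone was made into aminoallyl cDNA and coupled to Cy3 or Cy5, per the labels' protocols. The deposited values are 1 signed log ratio per spot and array, read here as log2. How the arrays were scanned, background-corrected and filtered is not stated in the sources used here. Consecutive runs of 361 spots had means near 0 on every array (at most 0.0054 in pair T1, 0.012 in pair T2 and 0.054 in pair T3). Values were used as deposited.

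Of the spots, 8050 were annotated to 1 gene, 672 to several and 2830 to none. Symbols were updated by Entrez ID through the RefSeq table of GRCm38.p6, which matched 7880 spots. Apart from 12 control or non-mouse spots, all 6039 spots with 3 values were tested, and 3462 genes after averaging the spots of a gene. The test was lmFit and eBayes of limma 3.58.1 (R 4.3.3) against 0, two-sided, with Benjamini-Hochberg adjustment over all spots or genes and a threshold of 0.05. It was also tested on simulated data. The arrays are separate mouse pairs, per the labels. The p-values use limma's moderated error, which combines a gene's or spot's spread between these 3 pairs with the spread of the others tested.

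Genes, 13 lists, tests and alternatives were chosen with earlier results of these data known. Named are the 7 genes, the 2 other genes of smallest p per list of globin, heme, iron and red cell genes, 1 per marker list, and the 5 nearest genes; no other listed gene of the first kind passed. The alternatives were T2 turned, each array left out, a dye term, centring, centring with scaling to an equal median absolute deviation, robust eBayes, a threshold of 0.10, the median over spots, and spots measured on at least 2 arrays.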

Additional observations from a re-analysis of the deposited data

How the results depend on the processing

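The 7 genes kept their direction and stayed short of the threshold with values on at least 2 arrays, robust eBayes, the median over spots, a threshold of 0.10 and both centrings. With T2 turned, Hbb-b1 (-0.036), Hbb-bh1 (-0.38) and Fech (-0.064) changed sign, as did 3 Tfrc spots, sequence A (0.034) and the spots of B (0.0087 and 0.067). Leaving out each pair in turn gave 0.24 to 0.47 for Hbb-b1, -0.0055 to 0.59 for Hbb-bh1, 0.22 to 0.48 for Fech and 0.21 to 0.51 for Urod, all 4 of which passed without T1, -0.23 to -0.067 for the Tfrc gene, and -0.18 to 0.17 and -0.20 to 0.078 for the spots of Tfrc sequence C. The dye term, with which T2 counts as much as T1 and T3 together, moved Hbb-bh1 to 0.56. Changed spots numbered 171, 68 higher and 103 lower, and 0 with T2 turned (20 at an unadjusted p under 0.05), 38 to 1095 with a pair left out, 1309 with a dye term, 54 after centring (3 higher, 51 lower), 676 after centring and scaling (470 higher, 206 lower) and 1165 at 0.10. Changed genes numbered 170, and 0 with T2 turned (19 at an unadjusted p under 0.05), 33 to 623 with a pair left out, 385 with a dye term, 63 after centring (7 higher, 56 lower), 262 after centring and scaling (137 higher, 125 lower) and 498 at 0.10.

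With T2 turned, list medians moved to -0.35 for globins, 0.094 for heme synthesis, 0.016 for iron uptake, 0.031 for iron regulation, 0.053 for erythroid regulators, -0.59 for B lineage, -0.070 for megakaryocyte and 0.13 for muscle markers. The iron uptake median was 0.25 with a dye term, 0.31 after centring and 0.34 after centring and scaling. With a pair left out the medians ran from -0.0055 to 0.47 for globins, 0.17 to 0.24 for heme synthesis, 0.17 to 0.33 for iron uptake, -0.040 to 0.095 for heme transport and breakdown, -0.31 to -0.14 for iron regulation, -0.10 to -0.049 for erythroid regulators, -0.017 to 0.049 for iron-sulfur clusters, -0.070 to 0.26 for neutrophil, -0.61 to -0.23 for muscle and 0.10 to 0.21 for monocyte and macrophage markers. The cause of these shifts was not tested. The pairing enters through the values, since each is already a ratio within a mouse pair and was tested against 0. The 3 arrays form 1 group, so no further pairing was modelled.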

Other observations

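Spots annotated to several globin genes were assigned to no gene. Of 4 spots that list Hbb-b1 beside Hbb-b2, another adult beta-globin gene, 3 were above 0 on all 3 arrays, with means from 0.29 to 0.46 over the 4 and medians of 0.19 in pair T1, 0.49 in pair T2 and 0.52 in pair T3. The fourth had -0.30 in pair T1, 1.04 in pair T2 and 0.12 in pair T3. None passed by limma (adjusted p from 0.0542 to 0.401). Of 6 spots whose annotation lists the adult alpha-globin genes Hba-a1 and Hba-a2 together with a histone gene, 5 had a value on all arrays and 4 of these were above 0 on each. Their means ran from 0.14 to 0.43 with a median of 0.20, and none passed (adjusted p from 0.0541 to 0.483). On these 5 spots the median was 0.073 in pair T1, 0.27 in pair T2 and 0.37 in pair T3, lowest on T1 as for Hbb-b1.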
